A study of Mus musculus with 8 samples.

Results

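The secretory products of goblet cells were examined as a set of 10 genes, Muc2, Tff3, Fcgbp, Clca1, Agr2, Zg16, Spink4, Ccn3, Galnt12 and Muc13, in sorted Paneth cells (PCs) of mice that drank plain or zinc-containing water. The 10 genes were taken by name from a table of read counts for 55414 genes, whose Ensembl identifiers were matched to GENCODE symbols. Of the 10 genes, 9 had counts in every library and were among the 10707 genes that passed the filter on low counts and were tested. Ccn3, a matricellular protein of the CCN family, had 0 counts in 7 libraries and 6 counts in zinc 2, or 0.43 counts per 1000000 counts of the library (CPM). With 3 counts taken as the limit that a count of 0 allows, Ccn3 could have stood at up to 0.179 to 0.369 CPM where it was not seen, depending on the library, and it was not tested.

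The libraries were made by bulk RNA-seq of PCs purified from the small intestine of C57BL/6J mice by fluorescence-activated cell sorting, 1 mouse per library. Of the 8 mice, 4 were given Milli-Q water, which is purified laboratory water, and 4 were given 25 mM ZnSO4 in their drinking water, in both cases for 7 days. After this, per the labels, every mouse, controls included, received an injection of the inflammatory cytokine TNF (tumor necrosis factor). PCs were taken 3 hours later, so by label no group was without TNF. The TNF response genes of zinc 3, given below, went against its label. The comparison asks how zinc in the drinking water relates to the RNA of PCs after TNF.

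Goblet cells release the mucus that covers the intestinal epithelium. Its scaffold is Muc2, a gel-forming mucin that is folded in the endoplasmic reticulum with the help of the disulfide isomerase Agr2, decorated with O-linked sugars in the Golgi and packed into granules together with smaller proteins. Goblet cells and PCs both descend from Atoh1-positive secretory progenitors, and PCs share part of the secretory equipment of goblet cells, whereas lysozyme (Lyz1) and the alpha-defensins are the known products of PCs.

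The 10 genes lie on 7 chromosomes of the GRCm39 build and differ widely in transcript length. Muc2 (ENSMUSG00000025515) is on chromosome 7 from 141276583 to 141308430 on the plus strand, and its longest annotated transcript spans 13916 bases in 48 exons. Fcgbp (ENSMUSG00000047730) is on chromosome 7 from 27770661 to 27820287 on the plus strand, with 7928 bases in 20 exons. Tff3 (ENSMUSG00000024029) is on chromosome 17 from 31344280 to 31348620 on the minus strand and is the shortest of the 10, with 516 bases in 3 exons. Because a longer transcript gives more fragments per molecule, levels of different genes relative to Lyz1 and their order are given per kilobase of the longest transcript. Ratios and shares of counts, and the highest CPM within a list, are without regard to length. Each gene is compared between libraries in CPM, scaled by the trimmed mean of M-values (TMM) method. No stretch of 75 bases in the transcripts of Muc2, Tff3, Clca1, Agr2, Zg16, Spink4, Ccn3 or Galnt12 occurred in another gene's transcripts. For Fcgbp 2.99% and for Muc13 5.97% of such stretches were shared with other genes, and the exons of Muc13 overlap those of the opposite-strand gene Gm15657 over 305 bases, so the counts of these 2 genes are less certain. Gm15657 had 1067 counts in all 8 libraries together, against 153774 for Muc13.

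Promoter sequence was at hand for 4 of the 10 genes (Muc2, Fcgbp, Agr2 and Muc13) in the RefSeq windows of the GRCm38.p6 build, which run from 250 bases before to 50 bases after each annotated start. The 250 bases before the start of Muc2 (chr7:141690090-141690339, plus strand) and of Fcgbp (chr7:28070986-28071235, plus strand) are shown because these genes had near-constant relative counts in 6 libraries and parted in zinc 3 and zinc 4. Capitals mark matches to the motifs searched.
Muc2: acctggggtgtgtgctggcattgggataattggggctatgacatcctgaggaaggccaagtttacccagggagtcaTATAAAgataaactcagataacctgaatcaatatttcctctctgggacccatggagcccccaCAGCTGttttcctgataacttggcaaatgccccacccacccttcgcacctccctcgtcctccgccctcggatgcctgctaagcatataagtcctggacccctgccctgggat
Fcgbp: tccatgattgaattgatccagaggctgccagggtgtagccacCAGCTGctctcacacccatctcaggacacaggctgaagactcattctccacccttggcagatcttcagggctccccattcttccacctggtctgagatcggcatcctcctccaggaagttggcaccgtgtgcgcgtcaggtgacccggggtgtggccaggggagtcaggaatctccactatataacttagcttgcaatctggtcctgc
Both strands were searched for TATAAA, the letters of a TATA box, for CAGATG and for its relative CAGCTG, which are E-boxes of the kind bound by Atoh1, for TGTTTAC, which Foxa factors bind, and for TGCACNC and the variant TGCGCNC, the core of a metal response element. The matches did not overlap one another. The Muc2 window held TATAAA from -174 to -169 and CAGCTG from -112 to -107, and the Fcgbp window held CAGCTG from -208 to -203. Of the Muc13 windows 1 and 2, window 1 held CATCTG, the reverse complement of CAGATG, from -44 to -39. Muc13 window 2 and the Agr2 window held no match. Among all 32851 windows of this length, 13.6% held TATAAA, 30.6% an E-box, 3.65% the Foxa letters, 25.7% the metal response core and 1.47% the NF-kB site. The windows of the 4 genes held no match to the Foxa, metal response or NF-kB letters, and a match or its absence is a description of letters only.

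The libraries held between 10623658 and 15101627 counts. In the PC libraries Lyz1 took 14.6% to 16.4% of all counts, and the PC products Itln1, Mmp7 and Defa24 were high in all 8 libraries. Zinc 3 stood apart: the Pearson correlation of its log2 CPM with the other libraries was 0.847 to 0.903, against 0.954 to 0.985 among the other 7. The summed level of 15 TNF and NF-kB response genes was 139 CPM in zinc 3, 1705 to 1733 CPM in the other zinc libraries and 1748 to 1991 CPM in the Milli-Q water libraries, so by this measure zinc 3 went against the label it shares with the other TNF-injected mice. The comparisons of the goblet cell products are therefore given with and without zinc 3. Milli-Q water 3 and 4 also differed from the rest, in that longer transcripts had lower counts there (Spearman correlation of a gene's deviation with its length -0.282 and -0.292, against 0.006 to 0.215 in the other libraries).

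Set against Lyz1, the goblet cell products spanned over 3 orders of magnitude in the same PCs. Spink4, a Kazal-type serine protease inhibitor of goblet cell granules, was the highest, and its counts per kilobase were 7.83%, 6.98%, 9.75% and 8.6% of those of Lyz1 in Milli-Q water 1 to 4 and 7.79%, 7.59%, 7.33% and 6.67% in zinc 1 to 4. No other product reached 2% of Lyz1 in any library. The geometric mean over the 8 libraries was 7.77% of Lyz1 for Spink4, 0.831% for the trefoil peptide Tff3, 0.586% for Agr2, 0.407% for the transmembrane mucin Muc13 and 0.264% for Muc2. A second tier followed at 0.0209% for Galnt12, 0.0197% for Fcgbp and 0.019% for Zg16, and Clca1 was the lowest of the measured genes at 0.00371%.

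**Figure D1:**
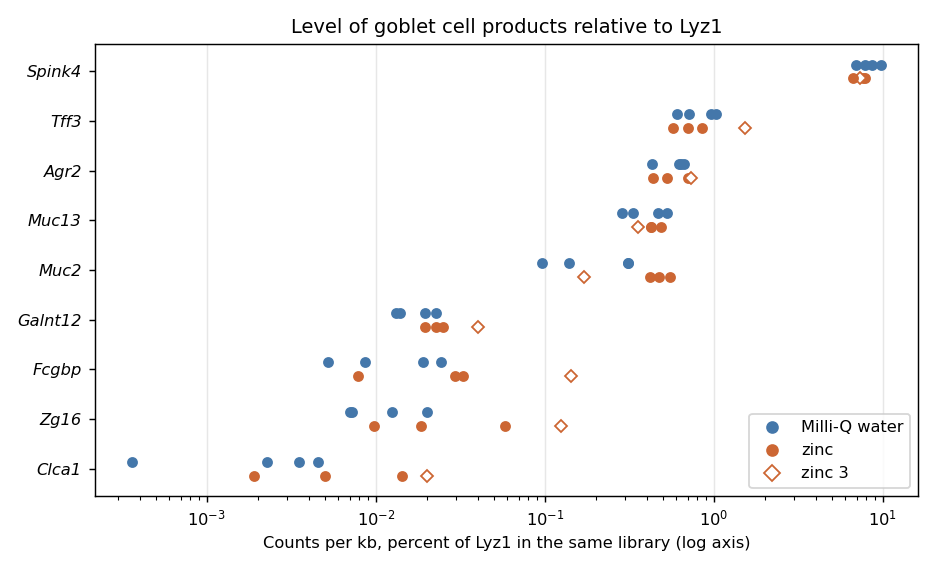
Counts per kilobase of each goblet cell product as a percent of Lyz1 in the same library, on a log axis. Each point is 1 library (blue, Milli-Q water; orange, zinc; open diamond, zinc 3). Spink4 sits between 6.67% and 9.75% in every library, apart from all others, and the points of Fcgbp, Zg16 and Clca1 are spread the most.

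The order of these levels was firm in only 2 places. In every library Spink4 was above Tff3, and the ranges over libraries (8026 to 12406 unscaled CPM per kilobase for Spink4, 694 to 1845 for Tff3) did not overlap. Likewise the lowest library of Muc2 (125) lay above the highest of Galnt12 (48.9). Tff3 was above Agr2 in 8 of 8 libraries, Agr2 above Muc13 in 7 and Muc13 above Muc2 in 6, but their ranges over libraries overlapped. Galnt12, Fcgbp and Zg16 could not be ordered: Galnt12 was above Fcgbp in 4 libraries, and Fcgbp above Zg16 in 5. Zg16 was above Clca1 in 8 of 8 libraries, again with overlapping ranges. In bulk RNA, a few cells with a high level and many cells with a low level give the same value, and fewer cells of a type cannot be told apart from less RNA per cell.

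Muc2, the gel-forming mucin, was higher in 3 of the 4 zinc libraries than in any Milli-Q water library. Its level was 4625, 4757, 3246 and 1950 CPM in Milli-Q water 1 to 4 and 8010, 6081, 2640 and 9290 CPM in zinc 1 to 4. Zinc 3 lay inside the range of the controls, so the groups overlapped. The means were 3645 ± 1320 CPM (SD, n = 4) and 6505 ± 2895 CPM (SD, n = 4), and the log2 fold change of zinc over water was 0.84 (SE 0.389), with an adjusted p of 0.485 in edgeR's quasi-likelihood test over all genes (unadjusted p = 0.0562). Without zinc 3 the zinc mean was 7793 ± 1616 CPM (SD, n = 3), the groups no longer overlapped and the log2 fold change was 1.10 (SE 0.269). Its unadjusted edgeR p was then 0.00131 and its adjusted p 0.5. Because Muc2 is long and transcript length moved with Milli-Q water 3 and 4, it was also fitted with the length trend taken out of each library, which gave a log2 fold change of 0.66 with all 8 libraries and 0.91 without zinc 3. With Milli-Q water 3 and 4 left out, it was 0.47.

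Fcgbp, a large protein that is bound to the Muc2 network in mucus, differed among libraries more than Muc2 did. It stood at 204, 167, 115 and 59.8 CPM in Milli-Q water 1 to 4 and at 318, 246, 1270 and 76.4 CPM in zinc 1 to 4. Zinc 1, 2 and 3 were above every control and zinc 4 was within the controls' range. The water mean was 136 ± 62.8 CPM and the zinc mean 478 ± 538 CPM (SD, n = 4 each), and the log2 fold change of 1.81 (SE 0.712) had an unadjusted p of 0.0285 and an adjusted p of 0.485 in edgeR. This value rested on zinc 3: without it, the zinc mean was 213 ± 124 CPM (SD, n = 3) and the log2 fold change 0.65 (SE 0.417, edgeR adjusted p = 0.718).

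Clca1, a secreted metalloprotease that processes Muc2, and Zg16, a lectin that binds Gram-positive bacteria, had the fewest counts of the 9 products. Clca1 was measured at 17.8, 9.11, 2.22 and 18.5 CPM in Milli-Q water 1 to 4, the third of these from 18 counts, and at 22.3, 54.9, 82.2 and 8.47 CPM in zinc 1 to 4. Zg16 was measured at 6.09, 10.8, 9.23 and 22.9 CPM in Milli-Q water 1 to 4 and at 17.7, 48.1, 109 and 9.35 CPM in zinc 1 to 4. For both genes zinc 2 and zinc 3 were the highest of all libraries, zinc 4 lay in the lower part of the range and the groups overlapped. The log2 fold change was 1.80 (SE 0.688) for Clca1 and 1.91 (SE 0.682) for Zg16, with unadjusted p of 0.0248 and 0.018 and an adjusted p of 0.485 for each in edgeR. Without zinc 3 the fold changes were 1.25 (SE 0.565, edgeR unadjusted p = 0.0464) and 1.04 (SE 0.485, edgeR unadjusted p = 0.051), with adjusted p of 0.611 and 0.619.

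Spink4 and Tff3, which are small secreted proteins with short transcripts, were highest in Milli-Q water 3. Spink4 stood at 4898, 4535, 9636 and 7329 CPM with water and at 5582, 4671, 4816 and 4791 CPM with zinc. Tff3, a trefoil peptide that takes part in epithelial repair, stood at 392, 347, 893 and 722 CPM in Milli-Q water 1 to 4 and at 532, 382, 879 and 364 CPM in zinc 1 to 4. Within the water group, libraries 3 and 4 were the high ones for both genes, and the groups overlapped. Spink4 averaged 6600 ± 2374 CPM in the controls and 4965 ± 416 CPM under zinc, and Tff3 averaged 588 ± 263 CPM and 539 ± 239 CPM (SD, n = 4 each). The log2 fold change was -0.41 (SE 0.25) for Spink4 and -0.13 (SE 0.363) for Tff3, with edgeR adjusted p of 0.529 and 0.896. Without zinc 3 these were -0.39 (SE 0.245) and -0.46 (SE 0.287). These signs were not firm: for Tff3 the fold change was 0.10 once the length trend was taken out and 0.14 without Milli-Q water 3, and without Milli-Q water 3 and 4 it was 0.53 for Tff3 and 0.06 for Spink4.

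Agr2, the endoplasmic reticulum isomerase that mucin folding needs, was measured at 603, 433, 977 and 870 CPM in Milli-Q water 1 to 4 and at 782, 503, 746 and 485 CPM in zinc 1 to 4. The zinc libraries all lay between the lowest and the highest control. The means were 721 ± 248 CPM and 629 ± 157 CPM (SD, n = 4 each), and the log2 fold change was -0.20 (SE 0.275, edgeR adjusted p = 0.776), or -0.28 (SE 0.255) without zinc 3. It was 0.27 without Milli-Q water 3 and 4.

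Galnt12, a Golgi transferase that places the first sugar of mucin O-glycans, was steady in the controls, at 69.4, 62.2, 63 and 57.6 CPM. With zinc it was measured at 87.8, 68.6, 130 and 68.5 CPM, so zinc 1 and zinc 3 were above every control and zinc 2 and 4 were not. Its log2 fold change of 0.49 (SE 0.209) had an unadjusted edgeR p of 0.0394 and an adjusted p of 0.485, and without zinc 3 the fold change was 0.25 (SE 0.128, edgeR unadjusted p = 0.0702).

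Muc13, a mucin that stays anchored in the apical membrane, varied least. Its levels were 1679, 1543, 1437 and 1442 CPM with water and 1531, 1514, 1190 and 1547 CPM with zinc. Zinc 3 was the lowest of all 8 libraries, and the other zinc libraries were within the range of the controls. The log2 fold change was -0.08 (SE 0.159, edgeR adjusted p = 0.852), and without zinc 3 it was 0.01 (SE 0.131).

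**Figure D2:**
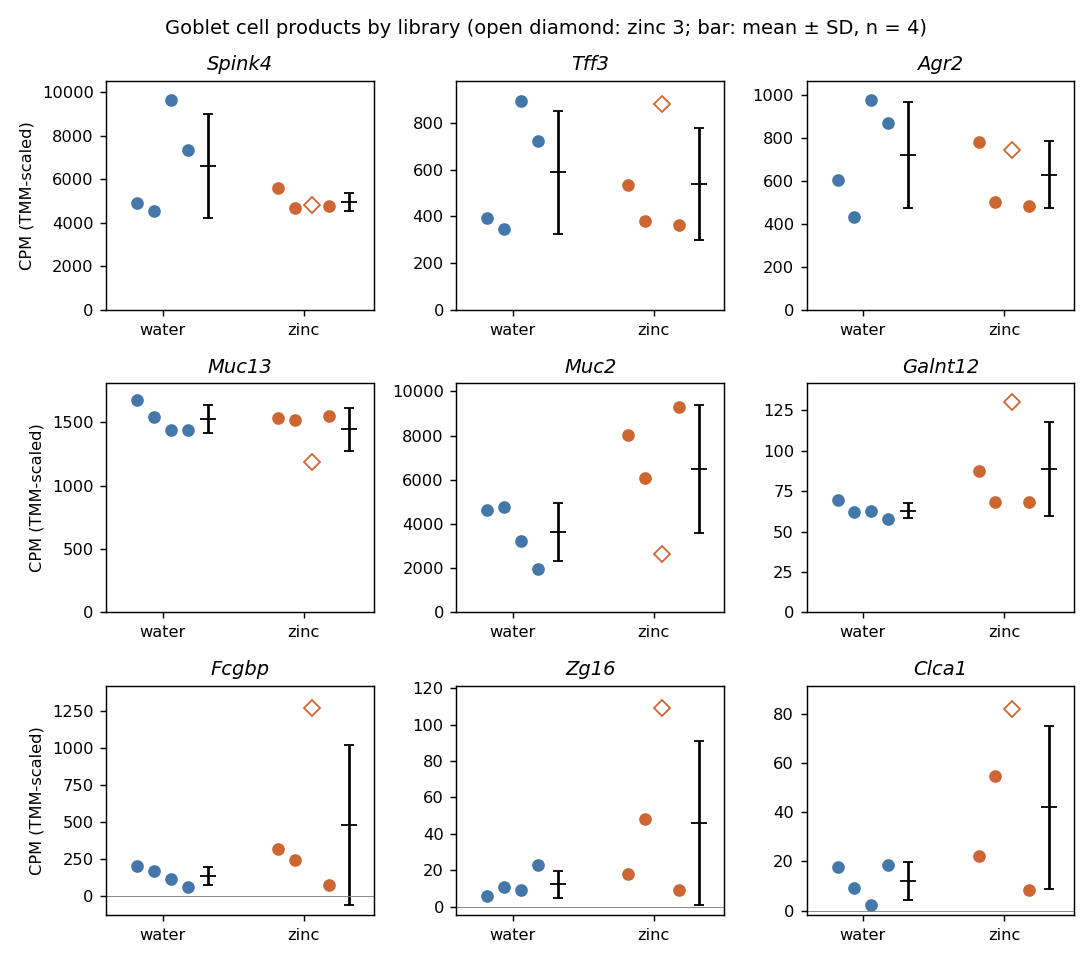
Level of 9 goblet cell products in each library, in CPM on TMM-scaled totals. Each point is 1 library in the order 1 to 4, the open diamond is zinc 3, and each bar gives the mean ± SD (n = 4). Muc2 in zinc 1, 2 and 4 lies above the 4 Milli-Q water libraries, while for Fcgbp, Zg16 and Clca1 the highest point is zinc 3.

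None of the 9 tested goblet cell products passed an adjusted p of 0.05, and the background over all 10707 genes was also 0% in edgeR (smallest adjusted p 0.485). By unadjusted p below 0.05, 4 products were higher with zinc (Fcgbp, Clca1, Zg16 and Galnt12), against 6.42% of all genes, and 0 were lower, against 3.78% of all genes. In total 1092 genes had such a p. No product had all 4 zinc libraries above all 4 Milli-Q water libraries, which 2.76% of all genes had, and none had all below, which 3.12% had. The fold change was above 0 for 5 products and below 0 for 4, beside 50.8% of all genes above 0. The median was 0.49, beside a median of 0.01 over all genes. The tests used 1 mouse per library. The edgeR p-values set the group difference against the spread between these mice, with the spread estimate moderated over the genes tested.

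Without zinc 3, 10755 genes were tested and again 0% passed an adjusted p of 0.05 (smallest 0.412). The products higher by unadjusted p were then 2, Muc2 and Clca1, against 4.34% of all genes, and 0 were lower, against 3.72%. Muc2 was the 1 product whose zinc libraries all lay above the controls, against 3.9% of all genes, and none lay below, against 3.99%. The fold change was above 0 for 6 products, beside 50.6% of all genes. The median over the 9 products was 0.25, beside 0.00 over all genes. In these edgeR fits Fcgbp, Zg16 and Galnt12 were thus past an unadjusted p of 0.05 with zinc 3, and Muc2 without it. The split depended on the fit. With zinc 3 kept, Muc2 had an unadjusted p of 0.0277 in a DESeq2 Wald test and 0.00709 in limma with sample weights. In edgeR it was 0.0269 without the filter, 0.0392 with upper-quartile scaling and 0.0747 with the length trend removed. With the replicate number as a block it was 0.0947 in edgeR. DESeq2 size factors, Defa genes removed or a stricter filter gave edgeR p of 0.0556 to 0.0584. In the limma fit, unadjusted p was 0.0944 for Fcgbp, 0.0919 for Galnt12 and 0.00969 for Zg16. With zinc 3 left out and the length trend removed, unadjusted edgeR p was 0.0198 for Zg16, 0.0467 for Galnt12 and 0.156 for Fcgbp.

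Over all 8 libraries, the spread was largest for Clca1, Fcgbp and Zg16: the highest library was 37.1 times the lowest for Clca1, 21.2 times for Fcgbp and 17.9 times for Zg16. It was 4.76 times for Muc2, 2.57 for Tff3, 2.26 for Agr2, 2.25 for Galnt12, 2.12 for Spink4 and 1.41 for Muc13, beside 1.6 for Lyz1. Without zinc 3 it was 24.8 times for Clca1, 7.9 for Zg16, 5.32 for Fcgbp and 1.52 for Galnt12, so that Fcgbp was then close to Muc2.

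**Figure D3:**
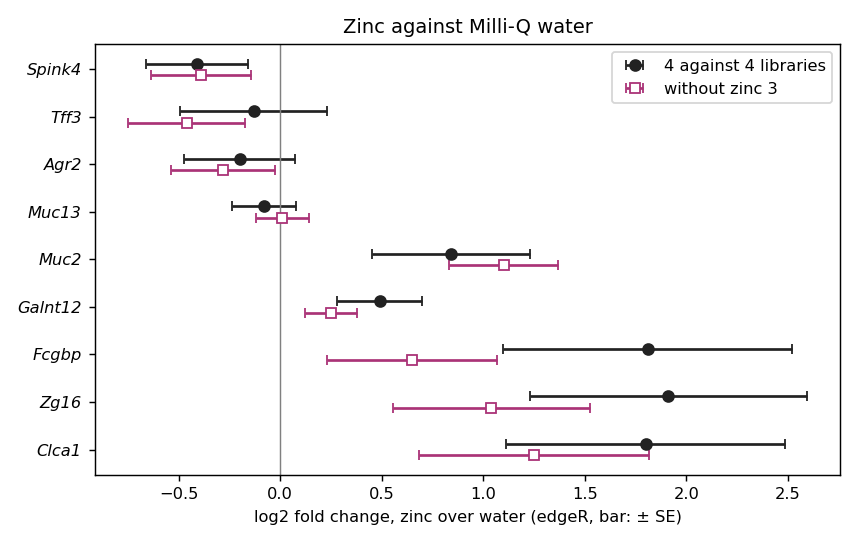
Log2 fold change of zinc over Milli-Q water for 9 goblet cell products from edgeR, with bars of 1 SE. Black circles use 4 against 4 libraries and open squares leave out zinc 3. Without zinc 3, Fcgbp moves from 1.81 to 0.65 and Zg16 from 1.91 to 1.04, whereas Muc2 moves from 0.84 to 1.10.

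Relative to Lyz1 in the same library, a measure that needs no scaling of library totals, the groups did not separate either. The log2 ratio per kilobase was higher with zinc by 0.95 for Muc2, 1.43 for Fcgbp, 1.67 for Zg16, 1.93 for Clca1 and 0.62 for Galnt12. It differed by -0.17 for Spink4, 0.07 for Tff3, 0.02 for Agr2 and 0.10 for Muc13. The smallest unadjusted p of the 9 was 0.0857, for Galnt12, in a two-sided exact permutation test over the 70 ways to divide 8 libraries, which can reach 0.0286. The adjusted p over the 9 products was 0.3 to 0.971 in these exact tests. Without zinc 3, the difference was 1.33 for Muc2, 0.72 for Fcgbp, 1.04 for Zg16, 1.44 for Clca1 and 0.41 for Galnt12, and -0.17 for Spink4, -0.21 for Tff3, -0.09 for Agr2 and 0.17 for Muc13. Without Milli-Q water 3 and 4, the libraries with the length trend, it was 0.24 for Muc2, 0.59 for Fcgbp, 1.83 for Zg16, 1.17 for Clca1 and 0.30 for Galnt12. Without Milli-Q water 3 alone it was 1.13 for Clca1. With zinc 3 left out, the exact p for Muc2 was 0.0571, which is the smallest that 4 against 3 libraries allow, so that design could not reach 0.05. Lyz1 itself averaged 168373 ± 37279 CPM in the controls and 146306 ± 10746 CPM under zinc (SD, n = 4 each; log2 fold change -0.20, SE 0.225, edgeR adjusted p = 0.713; -0.18 without zinc 3).

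The products did not vary as 1 group across libraries. Spink4, Tff3 and Agr2 were all highest in Milli-Q water 3, and their log2 CPM went together. Pearson's r over the 8 libraries was 0.70 for Spink4 with Tff3, 0.83 for Spink4 with Agr2 and 0.90 for Tff3 with Agr2, and 0.98, 0.90 and 0.96 over the 7 libraries without zinc 3. These values are descriptions: the points share TMM scaling and, in Milli-Q water 3 and 4, the length trend, and the transcripts of all 3 genes are short. With the length trend taken out, Milli-Q water 3 was still the highest library for Spink4 (7345 CPM, against 4974 to 6400 CPM in the others), while for Tff3 zinc 3 was (909 CPM, against 384 to 673 CPM). Agr2 was then at 778 CPM in both Milli-Q water 3 and zinc 1, 774 CPM in Milli-Q water 4 and 769 CPM in zinc 3. Galnt12, Fcgbp, Zg16 and Clca1 were all highest in zinc 3. For Galnt12 with Fcgbp r was 0.91 over 8 libraries and 0.73 over 7, and for Zg16 with Clca1 it was 0.79 and 0.67. These 4 genes went together less without zinc 3: over 7 libraries r was 0.04 for Galnt12 with Zg16 and 0.17 for Fcgbp with Zg16, against 0.67 and 0.66 over 8. For Muc2, r with Spink4, Tff3 and Agr2 was -0.50, -0.72 and -0.58. Its r with Fcgbp was -0.05 over 8 libraries and 0.49 over 7, and with Galnt12 it was -0.03 and 0.74.

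**Figure D4:**
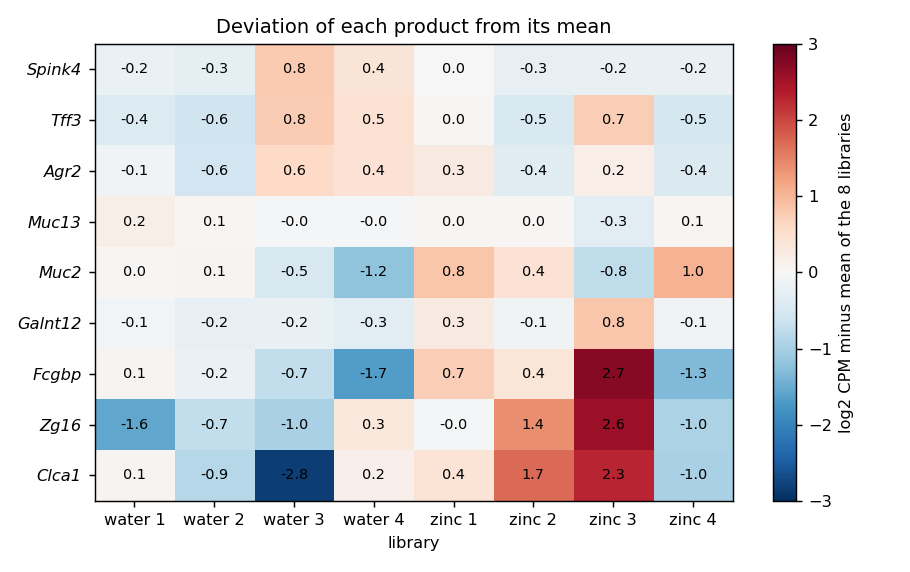
Deviation of each product's log2 CPM from its own mean over the 8 libraries. Rows are genes and columns libraries, red is above and blue below the mean, and the number in each cell is the deviation. Fcgbp, Zg16 and Clca1 are deep red in zinc 3, while Muc2 is blue there and red in zinc 1, 2 and 4.

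Fcgbp counts were 4.41%, 3.52%, 3.54% and 3.07% of Muc2 counts in Milli-Q water 1 to 4, and 3.97% and 4.04% in zinc 1 and 2. In zinc 3 Fcgbp reached 48.1% of Muc2, and in zinc 4 it was 0.823%. Thus the 2 partners of the mucus network kept close to 1 ratio in 6 libraries, although Muc2 itself ranged from 1950 to 8010 CPM in them, and 2 of the 4 zinc libraries lay far outside it in opposite directions. Muc2 per Tff3, by contrast, varied in both groups: 11.8, 13.7, 3.64 and 2.7 with water and 15.1, 15.9, 3 and 25.5 with zinc. Muc2 is long and Tff3 short, and Milli-Q water 3 and 4 are the libraries with the length trend. The part of that trend in this ratio was not tested. Tff3 per Agr2 was 0.65 to 0.914 in 7 libraries and 1.18 in zinc 3.

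By counts alone, 3 genes made up most of the set. Spink4, Muc2 and Muc13 together gave 86% to 93.9% of the counts of the 10 genes in 7 libraries and 72.9% in zinc 3. Fcgbp, Clca1 and Zg16 gave 0.567% to 2.57% in those 7 and 12.3% in zinc 3. The balance between the leading pair by counts moved as well: the Spink4 share was 28.8% to 58.8% and the Muc2 share 15.6% to 55.8%. Spink4 is short and Muc2 long, and the Spink4 share was highest in Milli-Q water 3 and 4, the libraries with the length trend. By counts Spink4 was above Muc2 in Milli-Q water 1, 3 and 4 and in zinc 3. Per kilobase Spink4 (8026 to 12406 unscaled CPM) was above Muc2 (125 to 658) in every library.

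**Figure D5:**
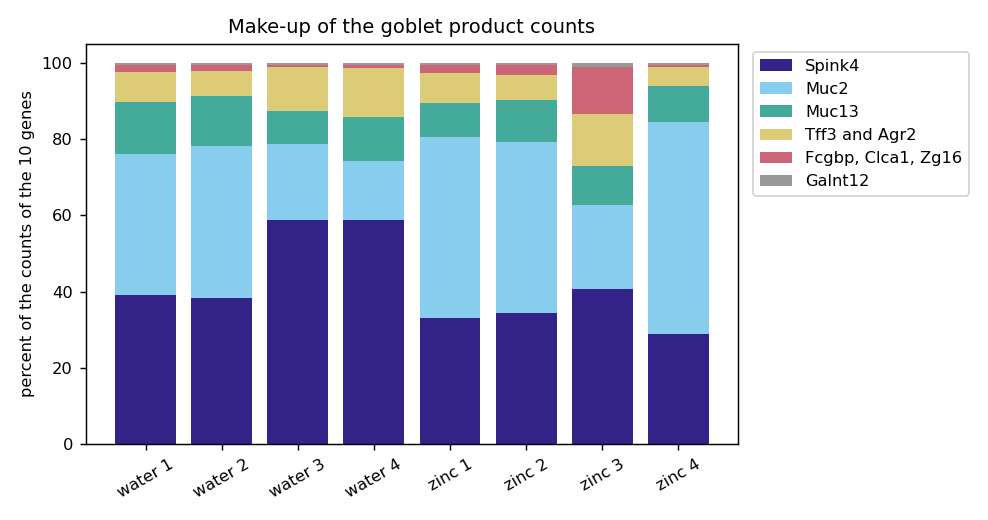
Make-up of the counts of the 10 goblet cell products in each library, in percent of their sum. Colours are genes or groups of genes. The Muc2 segment is largest in zinc 4 (55.8%), and the segment of Fcgbp, Clca1 and Zg16 reaches 12.3% in zinc 3.

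Summed, the 10 genes held 1.35%, 1.32%, 1.24% and 1.11% of all counts in Milli-Q water 1 to 4 and 1.7%, 1.55%, 1.28% and 1.64% in zinc 1 to 4. The lowest share, in Milli-Q water 4, had a 95% Wilson interval of 1.107% to 1.118% and the highest, in zinc 1, of 1.688% to 1.704%; both cover counting error only. Zinc 3 lay within the controls and the other zinc libraries above them. The mean was 1.25% ± 0.105 with water and 1.54% ± 0.182 with zinc (SD, n = 4 each). The groups thus differed by 0.287 percentage points, with an exact permutation p of 0.0857 (two-sided). Without zinc 3 the difference was 0.374 percentage points, with an exact p of 0.0571, again the smallest possible. When the share was taken of TMM-scaled totals, the difference was 0.144 percentage points with an exact permutation p of 0.371, so its size depended on the scaling. Relative to Lyz1 counts, the sum was 6.77% to 9.24% with water and 8.35% to 10.9% with zinc. The log2 ratio of the sum differed by 0.32 (exact permutation p = 0.0857), or 0.41 without zinc 3 (exact permutation p = 0.0571). Without Milli-Q water 3 and 4, the share differed by 0.209 percentage points (exact permutation p = 0.4). The log2 ratio of the sum then differed by 0.18 (exact permutation p = 0.4). Muc2 alone held 0.174% to 0.529% of all counts with water, and 0.805%, 0.695%, 0.286% and 0.915% in zinc 1 to 4. Spink4 held 0.504% to 0.729% with water and 0.472% to 0.561% with zinc. The higher sums with zinc thus followed Muc2 and were not shared by all 10 genes.

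Among other genes of the same pathway, no list held a gene past an adjusted p of 0.05 in edgeR, and counts below are by unadjusted p, to be read beside 6.42% of all genes higher and 3.78% lower (4.34% and 3.72% without zinc 3). Of 12 other mucins 11 were matched and 4 tested, of which 2 were higher with zinc, 0 were lower and the median log2 fold change was 0.28. The transmembrane mucin Muc17 averaged 4.61 ± 1.62 CPM in the controls and 11.2 ± 5.44 CPM under zinc (log2 fold change 1.27, SE 0.4, edgeR unadjusted p = 0.00931), and Muc3a at 36.5 ± 6.22 and 50.2 ± 11.1 CPM (0.46, SE 0.187, edgeR unadjusted p = 0.0335). Without zinc 3 these were 1.12 and 0.56, and the list's median was 0.51. Muc17 in zinc 4 (4.11 CPM) lay within the controls (2.96 to 6.43 CPM), as did Muc3a in zinc 3 (38.8 CPM, controls 30.8 to 42.1 CPM). Muc4, which had the highest CPM of the list without regard to length, was at 13.5 CPM in zinc 3 against 37.7 to 161 CPM in the other 7 libraries. Muc5ac and Muc5b, the gel-forming mucins of stomach and airway, had 0 counts in all 8 libraries.

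Of 20 further goblet cell products and secretion genes, 15 were tested, 4 were higher and 0 lower, and the median was 0.28. Without zinc 3, 2 were higher, 0 lower and the median was 0.00. Nlrp6, an inflammasome sensor that takes part in mucus release, averaged 2.75 ± 0.613 CPM in the controls and 9.46 ± 6.02 CPM under zinc. Zinc 4, at 2.58 CPM, lay within the controls (1.92 to 3.39 CPM). The log2 fold change of Nlrp6 was 1.77 (SE 0.469, edgeR unadjusted p = 0.00332, adjusted p = 0.485), or 1.33 without zinc 3. Ern2, the stress sensor of mucin-secreting cells, was at 71.3 ± 9.19 and 95.3 ± 19.7 CPM (0.42, SE 0.176, edgeR unadjusted p = 0.0367), but without zinc 3 its fold change was 0.30 (edgeR unadjusted p = 0.0551). The highest CPM, without regard to length, were those of the peptide hormone precursor Guca2a (566 ± 144 and 550 ± 75.9 CPM) and the ion cotransporter Slc12a2 (234 ± 38.2 and 285 ± 30.8 CPM).

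Of 24 genes that build O-linked sugars 21 were tested, 0 were higher and 2 lower. Of the 21 fold changes 13 were below 0 and 8 above, beside 50.8% of all genes above 0. The median was -0.19, or -0.04 without zinc 3, beside 0.01 and 0.00 over all genes. The 2 lower ones were the sialyltransferase St3gal4, at 53.1 ± 6.17 CPM in the controls and 28.8 ± 10.6 CPM under zinc (log2 fold change -0.88, SE 0.247, edgeR unadjusted p = 0.00474), and the sulfotransferase Chst4, at 53.4 ± 12.8 and 26.8 ± 14.7 CPM (-0.99, SE 0.417, edgeR unadjusted p = 0.0379). For both, zinc 3 was the lowest library, and without it the fold changes were -0.67 and -0.66. B3gnt3 (289 ± 41.6 and 234 ± 97.6 CPM) and Galnt6 (258 ± 37.1 and 224 ± 61.1 CPM) had the highest CPM of the list, without regard to length.

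All 10 transcription factors of the goblet lineage were tested, of which 3 were higher and 1 lower, with a median of 0.18. Without zinc 3, 2 were higher and 1 lower, with a median of 0.13. Atoh1, the factor that commits progenitors to the secretory lineage, was at 46.8, 41.9, 29 and 25.2 CPM in Milli-Q water 1 to 4 and at 133, 32.5, 98 and 73.4 CPM in zinc 1 to 4. Zinc 2 lay within the controls, and the log2 fold change was 1.23 (SE 0.371, edgeR unadjusted p = 0.00724, adjusted p = 0.485), or 1.15 without zinc 3. Spdef, which drives goblet and Paneth cell maturation, differed in the other direction, from 185 ± 37.2 to 135 ± 22.2 CPM (-0.45, SE 0.187, edgeR unadjusted p = 0.0356; -0.42 without zinc 3). Hes6 went from 3.17 ± 0.807 to 9.95 ± 9.45 CPM (1.64, or 0.72 without zinc 3), and Creb3l1, a regulator of secretory capacity, from 100 ± 11.4 to 113 ± 14.1 CPM. In this list the mean and SD are over 4 libraries per group, as they are for the other lists above.

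Markers of other cell types were summed in each library. The summed level of 15 enterocyte markers was 347 to 399 CPM with water, 363 to 490 CPM in zinc 1, 2 and 4, and 875 CPM in zinc 3, and 10 of the 11 tested had a fold change above 0 (median 0.86, or 0.19 without zinc 3). For 10 stem and cycling cell markers the sum was 421 to 614 CPM with water, 500 to 1105 CPM in zinc 1, 2 and 4 and 1051 CPM in zinc 3. Of this, 199 to 324 CPM came from Slc12a2, which is also in the list of goblet secretion genes above. The fold change was above 0 for 8 of 8 tested (median 1.04, or 0.89 without zinc 3), with 5 higher by unadjusted edgeR p in each case. These counts are to be read beside the shares of all genes given above. The share of all genes with a fold change above 0 was 50.8%, or 50.6% without zinc 3. Olfm4, a crypt stem cell marker, was at 639, 413, 482 and 113 CPM in zinc 1 to 4, against 142 to 305 CPM with water. For 8 tuft cell markers the sum was 1.97 to 7.6, 2.1 to 6.81 and 17.8 CPM. Enteroendocrine markers summed to 26.5 to 45.9 CPM with water, 16.6 to 30.9 CPM in zinc 1, 2 and 4 and 23.7 CPM in zinc 3. The 11 immune markers summed to 3.75 to 9.11, 3.55 to 6.02 and 1.61 CPM, with 2 counts of Ptprc and 1 of Cd3e in all 8 libraries together, and the 10 stromal and endothelial markers to under 1 CPM in every library, with Col1a1 at 0 counts in all 8. The 10 PC products summed to 361925 to 620934 CPM with water, 343606 to 422605 CPM in zinc 1, 2 and 4 and 398712 CPM in zinc 3, with a median fold change of -0.28, or -0.24 without zinc 3. The part of these other cell types in the levels of Fcgbp, Zg16, Clca1 and Muc2 was not tested.

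Outside these lists, genes whose log2 CPM was most like the mean centred profile of the 9 products over the 8 libraries included Slc37a4 (r = 0.990), Zbtb8a and Lmnb2 (each r = 0.985) and Ccnd3 (r = 0.984). Over the 7 libraries without zinc 3 they included Racgap1 (r = 0.987), Clpb (0.977), Slc37a4 (0.973) and Lmnb2 (0.970). Their mean levels were low, from 1.99 CPM for Racgap1 to 18.5 CPM for Clpb. The profile they were compared with was 0.90 above its mean in zinc 3 on the log2 scale and between -0.38 and 0.31 in the other libraries. These genes were among the closest of all tested genes over few points that share TMM scaling, and they are given as a description.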

How the data were processed

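The values deposited were raw counts of reads for each Ensembl gene, in 1 table with a column for each of the 8 libraries. Per the labels, a strand-specific mRNA kit was used, and the submitters' processing notes name FastQC 0.12.0, STAR 2.7.10a, DESeq2 and the mm39 build. The counter, its strand setting, its rule for reads with several matches and the annotation release are not given in the sources used here. The handling of such reads bears on Fcgbp, Muc13 and Lyz1, which share sequence with other genes.

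Of 55414 identifiers, 54749 were matched to GENCODE M39, and the other 665 held 0.00443% of counts. Counts were fitted with edgeR 4.0.16 (quasi-likelihood F-test, TMM factors, filterByExpr, Benjamini-Hochberg adjustment over all genes tested) in R 4.3.3. The 10707 genes kept held 99.89% of counts. Log2 CPM used a prior count of 2, and levels per kilobase used the longest transcript. Exact permutation tests were run in SciPy 1.17.1. Scripts were tested on simulated data. Of the 28 pairs of libraries, the closest differed by a chi-square of 6.05 per degree of freedom, so no library was counted as a duplicate.

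The members, lists and tests were chosen with earlier results of these data known. Named were the 10 products, Lyz1, up to 4 genes per goblet list (the 2 with the highest mean CPM and the 2 with the smallest p) and the 5 genes with the most similar profile, of which 1 is not reported here; Itln1, Mmp7, Defa24, Ptprc, Cd3e, Col1a1 and Olfm4 were named as cell type markers, and Muc5ac and Muc5b after their values were seen. Groups were taken from the sample titles. Alternatives were other scaling and filters, Defa genes removed, DESeq2 1.42.0, limma 3.58.1 (voom with sample weights), a replicate block, a length correction (loess, span 0.5) and leaving out libraries. Leaving out zinc 3 together with the length correction was added after the data were seen.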

Additional observations from a re-analysis of the deposited data

Results flagged for a closer look

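Among 40 groups of 4 libraries searched, 3 held a library far from its other 3 by Dixon's ratio of the gap to the range (above its 95% critical value), where chance gives about 1 in 20, or 2. Muc13 stood at 1190 CPM in zinc 3, against 1514 to 1547 CPM in the other zinc libraries (ratio 0.91). Spink4 stood at 5582 CPM in zinc 1, against 4671 to 4816 CPM in the others (ratio 0.841). The log2 ratio of Agr2 to Lyz1 per kilobase was -7.86 in Milli-Q water 2, where Agr2 was at 0.431% of Lyz1, against 0.625% to 0.662% in the other Milli-Q water libraries (ratio 0.865).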

How the results depend on the processing

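No goblet cell product passed an adjusted p of 0.05 in any fit, and of 279 alternative values for single products 17 had the other sign, all for Tff3, Agr2, Muc13 or Spink4. Leaving out 1 library at a time gave 0 to 0 genes called by edgeR, a difference in summed share of 0.236 to 0.374 percentage points and in summed log2 ratio to Lyz1 of 0.25 to 0.41. For products whose sign turned, it gave -0.46 to 0.14 for the log2 fold change of Tff3, and -0.21 to 0.26 for Tff3, -0.12 to 0.16 for Agr2 and -0.05 to 0.24 for Muc13 relative to Lyz1. The DESeq2 Wald test called 4 genes (1286 by unadjusted p), Cd74, Slc14a1, Ms4a12 and Lrp1, none of them a product; limma called 0 (1324 by unadjusted p). The log2 fold change of Tff3 was 0.10 with the length trend removed, 0.14 without Milli-Q water 3, 0.01 without zinc 2, 0.02 without zinc 4 and 0.53 without Milli-Q water 3 and 4, where Agr2 was at 0.27 and Spink4 at 0.06. That of Muc13 was 0.01 without zinc 3 and 0.04 when the length trend was also removed. Relative to Lyz1, Tff3 differed by -0.07 without Milli-Q water 2 and -0.21 without zinc 3. Agr2 differed by -0.03 against all PC products, -0.12 without Milli-Q water 2, -0.07 without zinc 1 and -0.09 without zinc 3, and Muc13 by -0.05 without Milli-Q water 3 and -0.25 without Milli-Q water 3 and 4. The causes were not tested. With sample weights in limma, Fcgbp was at 0.78. With the replicate number as a block, edgeR called 0 genes (802 by unadjusted p), and the share (0.287 percentage points) and summed ratio (0.32) had a sign-flip permutation p of 0.125, the smallest that 4 pairs allow. Equal numbers did not pair the libraries: the correlations of their deviations were -0.027 to 0.027, and 0 Milli-Q water libraries correlated best with their own number. The block gave a log2 fold change of 1.17 for Fcgbp. The 9 products had at least 75 counts in every library, except Clca1 with 18 in Milli-Q water 3, and 4 mice per group limit every comparison.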
